A study of Mus musculus with 7 samples.

Results

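The transcripts of 39 DNA replication genes were examined in MIN6 cells, a mouse beta-cell line that makes insulin and keeps dividing in culture. Each gene was measured by the array probes whose RefSeq transcript accession belongs to it. All 39 of 39 genes were found, on 57 probes, among 22060 genes that could be tested. Of these 22060, 13653 had a gene symbol. The others were array entries without one, counted under their array name and included wherever all genes are given below. The genes share a known function, and the list was selected on measured log2 differences of replicates 1 and 2 from the other arrays, where such genes ran opposite to stress genes. That contrast is therefore described below and not tested.

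Cells received a polysaccharide extract of Maidong (MPE) or, as vehicle, phosphate-buffered saline, in both cases for 3 days. The MPE group held 4 arrays and the vehicle group 3 arrays, each hybridized with Cy3-labelled cRNA of 1 sample. All groups share the MIN6 line at passages 20 to 30, a single line from a tumour of a mouse carrying SV40 large T antigen in its beta cells. That antigen binds the retinoblastoma protein, which otherwise holds E2F factors back, and unlike most adult beta cells the line proliferates. Culture notes list MPE up to 50 μg/mL without saying which concentration the arrays represent, and no label tells whether the replicates are separate cultures. The p-values therefore rest on the spread among these arrays alone, and that spread may be technical.

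DNA replication starts when the origin recognition complex, Cdc6 and Cdt1 load the ring-shaped Mcm2 to Mcm7 helicase onto origins. Cyclin E with Cdk2 and other kinases then allow Cdc45 and the GINS complex to join and activate the helicase, and polymerases copy both strands behind it, held on DNA by the sliding clamp Pcna. Most of these genes are transcribed in late G1 and S phase under E2F transcription factors, so their summed transcript level is widely read as a sign of how many cells are in S phase. In a bulk sample, fewer cells in that phase and less RNA per cell cannot be told apart.

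E2F binding is the regulatory feature that these genes are best known to share, and the promoters of 4 of them are shown because they hold 3, 1, 0 and 1 matches to an E2F-type motif. Mcm6 has the most matches of the list, Cdt1 was the member whose treatment groups did not overlap, and Cdc45 and Pola1 ran in opposite directions between the replicates. Sequences are from RefSeq (build GRCm38.p6), run 5′ to 3′ on the gene's strand from 250 bases before to 50 after the transcript start, and capitals mark matches to TTTNNCGC on either strand.
Mcm6, chr1:128359656-128359955 (- strand): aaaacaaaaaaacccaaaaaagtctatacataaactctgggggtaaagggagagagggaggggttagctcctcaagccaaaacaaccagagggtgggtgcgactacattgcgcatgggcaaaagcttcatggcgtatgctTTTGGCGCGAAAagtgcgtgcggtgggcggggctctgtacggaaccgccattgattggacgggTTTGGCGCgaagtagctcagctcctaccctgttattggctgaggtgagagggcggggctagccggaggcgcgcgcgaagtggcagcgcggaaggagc
Cdt1, chr8:122567765-122568064 (+ strand): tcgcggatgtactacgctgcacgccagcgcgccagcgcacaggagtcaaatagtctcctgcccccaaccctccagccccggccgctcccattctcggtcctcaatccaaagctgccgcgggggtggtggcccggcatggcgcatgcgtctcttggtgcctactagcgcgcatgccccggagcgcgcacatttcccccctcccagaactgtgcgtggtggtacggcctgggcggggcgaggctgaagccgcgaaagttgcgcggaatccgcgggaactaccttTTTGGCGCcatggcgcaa
Cdc45, chr16:18811923-18812222 (- strand): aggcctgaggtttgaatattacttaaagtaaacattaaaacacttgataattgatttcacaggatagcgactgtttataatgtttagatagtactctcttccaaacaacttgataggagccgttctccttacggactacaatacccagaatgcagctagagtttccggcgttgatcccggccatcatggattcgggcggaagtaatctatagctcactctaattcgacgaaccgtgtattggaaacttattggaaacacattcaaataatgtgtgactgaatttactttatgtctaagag
Pola1, chrX:93632106-93632405 (- strand): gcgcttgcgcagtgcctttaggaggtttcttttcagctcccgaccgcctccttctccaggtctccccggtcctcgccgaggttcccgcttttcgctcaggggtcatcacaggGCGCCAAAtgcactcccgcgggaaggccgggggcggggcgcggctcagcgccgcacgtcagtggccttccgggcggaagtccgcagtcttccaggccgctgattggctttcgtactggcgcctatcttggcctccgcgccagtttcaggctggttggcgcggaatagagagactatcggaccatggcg
In the Mcm6 promoter the matches began 110, 106 and 47 bases before the transcript start, and the first pair overlapped. The Cdt1 match began 32 bases after the start, and the Pola1 match began 138 bases before it. Promoter entries were matched for 34 of the 39 genes (not for Gins1, Gins2, Mcm4, Pole and Ccne2), taking the first entry of each gene. TTTNNCGC was present in 15 of the 34 (44.1%), against 5.27% of 27025 promoters of the same length. The CCAAT box, letters CCAAT, was present in 21 of 34 (61.8%), against 37.9% of all promoters. The CHR element of mitotic promoters, letters TTTGAA, was present in 4 of 34 (11.8%), against 18.1% of all promoters. All were searched on both strands, and 1 of the 22 E2F-type matches overlapped a match to either of the other motifs. These matches describe the letters and show no binding.

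All levels below are log2 processed signals relative to the 75th percentile of the array, and they are compared between arrays for the same probe only. The exception is the summed linear level of marker genes, to which the brightest genes contribute most. Where a gene had several probes, the probe with the highest mean was used. Every one of the 57 probes was well above background on all 7 arrays. An MPE array had 27901 to 28465 of 56605 probes well above background, and a vehicle array 29496 to 30111. Correlations across genes were 0.991 to 0.994 within MPE and 0.995 to 0.997 within vehicle, and no pair of arrays was identical. All 7 arrays lay on 1 slide, with MPE in slide row 2 and vehicle in slide row 1, which means that treatment and slide row cannot be told apart. Beta-cell identity was seen in 8 of 9 markers, with Ins1, Ins2, Iapp and G6pc2 among the brightest genes, while 0 arrays detected Slc2a2, a glucose transporter gene, well above background. All 4 hormone genes of other islet cells (Gcg, Sst, Ppy and Ghrl) were measured too. None of the 5 acinar and duct markers and 2 of 9 stromal, endothelial and immune markers (Acta2 and Cd68) were well above background on 3 or more arrays.

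The first comparison asks whether 3 days of MPE altered the transcripts of the replication machinery. No member passed the test: 17 were higher and 22 lower with MPE, with a median log2 difference of -0.02, against -0.02 over all 22060 genes. Limma called 0 of 39 members at an adjusted p under 0.05, where 0.00453% of all genes were called higher and 0% lower. At an unadjusted p under 0.05 it also called 0 members, where 0.757% of all genes were higher and 3.35% lower. Every member had an adjusted p of 1. The differences of members ranged from -0.17 for the cyclin gene Ccne2 to 0.19 for the helicase cofactor gene Cdc45. These genes were measured more precisely than most: 38 of 39 members had a 95% interval inside 1.5-fold up and down, against 80.7% of all genes. The exception was the histone mRNA-binding protein gene Slbp, whose interval was 0.801 to 1.52 times vehicle. The median residual standard deviation of the members was 0.08 on the log2 scale, against 0.12 for all genes. The members were also bright. With all genes divided by mean level into 5 equal bins, 25 of the 39 lay in the brightest bin and 0 in the dimmest. The part of brightness in this precision was not tested. When arrays were scaled to their median, every MPE difference moved by -0.07, so that 32 of 39 members were lower with MPE and the medians of members and of all genes were -0.09 and -0.09. Of 8 beta-cell markers 8 were lower with MPE, with a median of -0.08 and 0 called, and their summed linear level was 2842 to 3266 with MPE, against 2992 to 3756 with vehicle. Their part in the result was not tested.

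**Figure D1:**
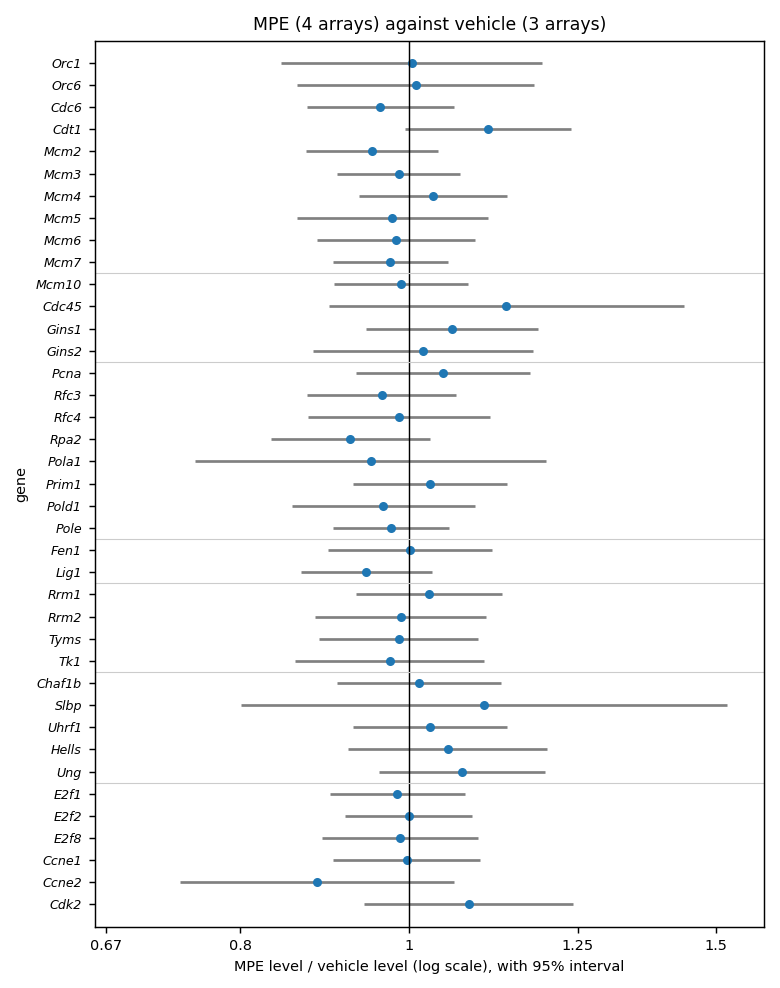
Level with MPE (4 arrays) relative to vehicle (3 arrays) for each of the 39 genes, on a log axis, with the point at the fitted ratio and the line at its 95% interval; grey rules separate roles. All intervals cross 1, from Ccne2 at 0.886 to Cdc45 at 1.14, and that of Slbp is the widest.

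Origin licensing genes bind or load the helicase, and 4 of the 10 were higher and 6 lower with MPE. Cdt1, the loading factor that is destroyed once S phase begins, had the smallest unadjusted p of the whole list. Its levels were 4.73, 4.72, 4.92 and 4.87 on the MPE arrays, against 4.64, 4.64 and 4.70 on the vehicle arrays. All 4 MPE arrays thus lay above all 3 vehicle arrays. The log2 difference was 0.15 (SE 0.07), or 1.11 times vehicle (95% interval 0.994 to 1.24), with an unadjusted limma p of 0.0600 and an adjusted p of 1. Within slide columns 1, 2 and 4, which hold an array of each group, the differences were 0.09, 0.08 and 0.17. Cdt1 was the 1 member of 39 whose groups did not overlap, where 1.17% of all genes were without overlap higher with MPE and 3.36% lower.

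The other licensing genes had smaller differences. Orc1, the large ATPase subunit of the origin recognition complex, had levels of -0.89, -0.89, -0.58 and -0.88 with MPE, against -0.98, -0.73 and -0.73 with vehicle. Its MPE replicate 3 alone was high, and the groups overlapped. Orc6, the smallest subunit, stood at 4.58, 4.59, 4.90 and 4.64 with MPE, against 4.58, 4.65 and 4.77 with vehicle, again with replicate 3 highest. The loading ATPase gene Cdc6 had a log2 difference of -0.05 (SE 0.06). Over the helicase ring genes Mcm2, Mcm3, Mcm4, Mcm5, Mcm6 and Mcm7, the log2 differences were -0.07, -0.02, 0.05, -0.03, -0.02 and -0.04. Their ratios to vehicle thus ran from 0.953 for Mcm2 to 1.03 for Mcm4, each with an interval that includes 1.

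Helicase activation is the step at which Cdc45 and the GINS subunits join the Mcm ring, with Mcm10 needed to start unwinding. Cdc45 had the highest log2 difference of the list, 0.19 (SE 0.14), and an unadjusted limma p of 0.234. Its levels were 0.20, 0.20, 0.61 and 0.46 with MPE, against -0.04, 0.18 and 0.40 with vehicle. Both groups were wide and overlapped, with MPE replicate 3 highest and vehicle replicate 1 lowest. Gins1 and Gins2 had log2 differences of 0.08 (SE 0.07) and 0.03 (SE 0.09), and Mcm10 had -0.02 (SE 0.05).

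No gene of the copying machinery passed the test. Pcna, the sliding clamp and a common marker of proliferating cells, had levels of 6.55, 6.57, 6.62 and 6.50 with MPE, against 6.37, 6.60 and 6.53 with vehicle. Vehicle replicate 1 was the lowest array, and the ratio to vehicle was 1.05 (95% interval 0.932 to 1.17). The clamp loader subunit genes Rfc3 and Rfc4 differed by -0.05 and -0.02 on the log2 scale. Rpa2, a subunit of the protein that coats single-stranded DNA, stood at -0.11 (SE 0.06, limma adjusted p = 1). Among polymerase genes, Pola1 and Prim1 of the priming complex differed by -0.07 and 0.04, the lagging-strand polymerase Pold1 by -0.05 and the leading-strand polymerase Pole by -0.03. Of the nuclease and ligase genes that finish Okazaki fragments, Fen1 differed by 0.00 and Lig1 by -0.08 (SE 0.05).

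The 4 nucleotide supply genes had differences under 0.05 in size. The ribonucleotide reductase subunit genes Rrm1 and Rrm2, whose enzyme makes deoxyribonucleotides, had log2 differences of 0.04 and -0.02. Thymidylate synthase Tyms and thymidine kinase Tk1 had -0.02 and -0.04. In the group that packages and maintains chromatin or repairs bases, all 5 genes were higher with MPE and none passed. They were Chaf1b of chromatin assembly factor 1 (0.02), Slbp (0.14), the hemimethylation reader Uhrf1 (0.04), the chromatin remodeller Hells (0.07) and the uracil glycosylase Ung (0.10). Under median scaling Chaf1b turned to -0.05 and Uhrf1 to -0.03, leaving 3 of the 5 higher. These values are from the brightest probe of each gene. On the dimmer probe Uhrf1 stood at -0.31 and Slbp at 0.30, both larger in size.

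Regulators that turn replication genes on showed no difference past the threshold either. The activator E2f1 stood at 0.985 times vehicle (95% interval 0.901 to 1.08), the activator E2f2 at 1.00 times (0.919 to 1.09) and the repressor E2f8 at 0.988 times. Ccne1 and Ccne2 encode E-type cyclins, the partners of Cdk2. Ccne1 stood at 0.997 times vehicle and Cdk2 at 1.08 times. Ccne2 had levels of -1.77, -1.97, -1.69 and -1.58 with MPE, against -1.58, -1.44 and -1.72 with vehicle. These overlapped, and its ratio was 0.886 (0.739 to 1.06).

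Within slide columns, which pair arrays of both treatments, the sign of the MPE difference was not steady. MPE replicate 3 lay in column 3, which held no vehicle array, and has no part in this comparison. In column 1, 21 of the 39 members were higher with MPE, in column 2, 12 were, and in column 4, 13 were. Medians were 0.00, -0.05 and -0.04 in these columns, against -0.02, -0.02 and -0.02 over all genes. All columns gave the same sign for 10 members, with 3 higher (Cdt1, Cdc45 and Chaf1b) and 7 lower (Mcm6, Mcm7, Gins2, Rpa2, Lig1, Rrm2 and Tyms). These are 7.69% and 17.9% of the members, near the 7.82% and 15.5% of all genes. Gins2 was higher with MPE in the main fit (0.03), which includes MPE replicate 3. Its differences in columns 1 and 2 were only -0.005 and -0.001.

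**Figure D2:**
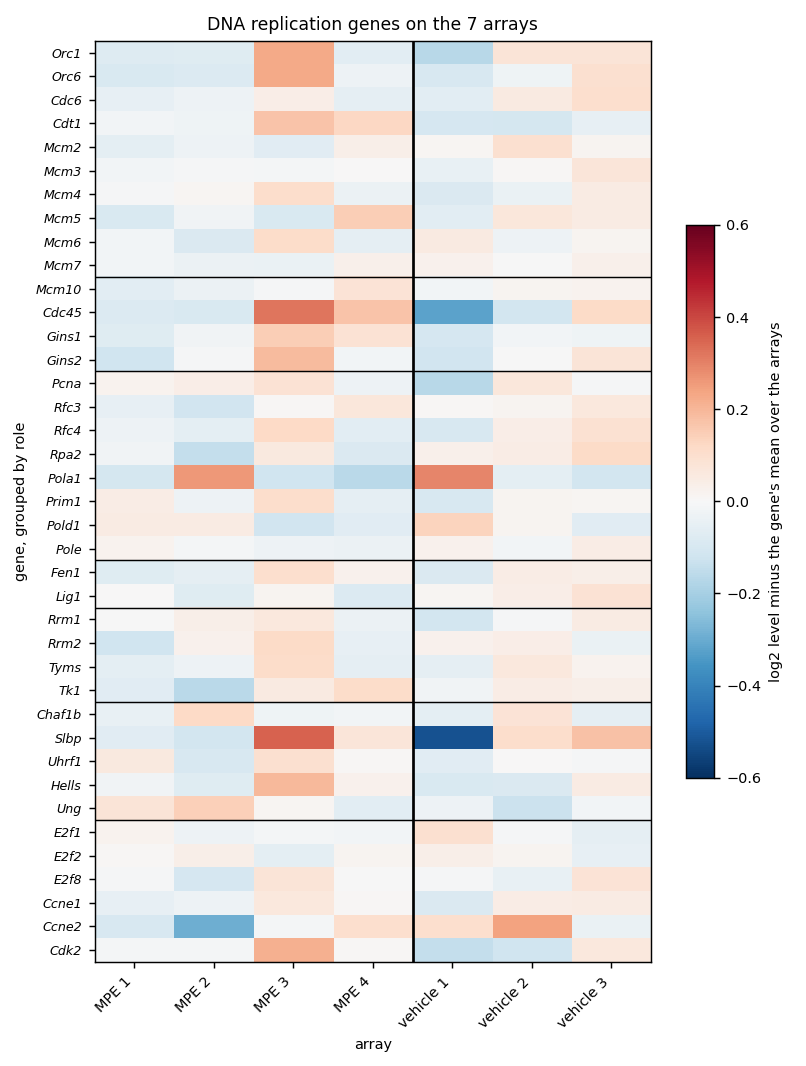
Level of each gene on each array minus the mean of that gene over the 7 arrays (log2, red above and blue below), with MPE arrays left of vehicle arrays and horizontal lines between roles. MPE replicate 3 is the reddest column and vehicle replicate 1 the bluest, with Slbp and Cdc45 widest.

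The second comparison sets replicates 1 and 2 of both treatments against the other arrays (MPE replicates 3 and 4 and vehicle replicate 3). Replicates 1 and 2 lay in slide columns 1 and 2 and the other arrays in slide columns 3 and 4. In this contrast replicate number and slide column therefore cannot be told apart. The labels give no extraction or culture date. This contrast was in view when the list was proposed and carries no test here. In it, replication genes were slightly lower in replicates 1 and 2: 32 of 39 were lower and 7 higher, with a median log2 difference of -0.06 after allowing for treatment. With median scaling 14 of 39 were lower and the median was 0.02, because that scaling moved the difference of every gene by 0.08, and the median of all genes to 0.09. Relative to the median of all genes, the members stood at -0.08 under both scalings and between -0.10 and -0.04 over all 16 alternatives run. Over all 22060 genes the median was 0.02, and 45.8% were lower. The same direction in both treatments was found for 27 members that were lower (69.2%) and 5 that were higher (12.8%), against 31.9% and 39.1% of all genes.

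Array by array, the members did not split cleanly into the same groups. Their median deviation from the gene's mean was -0.03 and -0.03 in MPE replicates 1 and 2 and -0.06 and 0.02 in vehicle replicates 1 and 2, against 0.06 and -0.01 in MPE replicates 3 and 4 and 0.04 in vehicle replicate 3. MPE replicate 4 therefore lay below vehicle replicate 2. MPE replicate 3 held the highest value of 20 of the 39 genes, and vehicle replicate 1 the lowest value of 17. Without MPE replicate 3 the median difference was -0.04 with 29 members lower, and without vehicle replicate 1 it was -0.05 with 30 lower.

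Stress genes, a list mainly of amino-acid response and unfolded-protein response genes, ran the other way as a list, with differences from -0.03 to 0.73. In replicates 1 and 2, 29 of 30 measured members were higher, with a median log2 difference of 0.23. Their median deviations were 0.11 and 0.11 in MPE replicates 1 and 2 and 0.14 and -0.02 in vehicle replicates 1 and 2, against -0.13 and -0.14 in MPE replicates 3 and 4 and -0.10 in vehicle replicate 3. These did not overlap between the array sets, and under median scaling 30 of 30 were higher (median 0.31). The largest non-overlapping difference was that of Chac1, a glutathione-degrading enzyme of the amino-acid response, at 0.73, followed by the stress regulator Nupr1 at 0.45. The unfolded-protein response genes Hspa5, Xbp1, Dnajb9, Creld2 and Hsp90b1 stood at 0.02, -0.03, 0.05, 0.06 and 0.08. Herpud1 and Sdf2l1 of the same response stood at 0.16 and 0.16. Each of these lay below the list median. Atf4, Ppp1r15a and Atf3, shared with the amino-acid response, stood at 0.17, 0.15 and 0.07, also below it. Ddit3, likewise shared, stood above it at 0.25, with overlap between the array sets. Among the genes of this response named here, Creld2, Atf4 and Ppp1r15a were higher without overlap, where 16.1% of all genes were. In vehicle replicate 2 the stress list lay closest to the other arrays, as the replication list did.

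**Figure D3:**
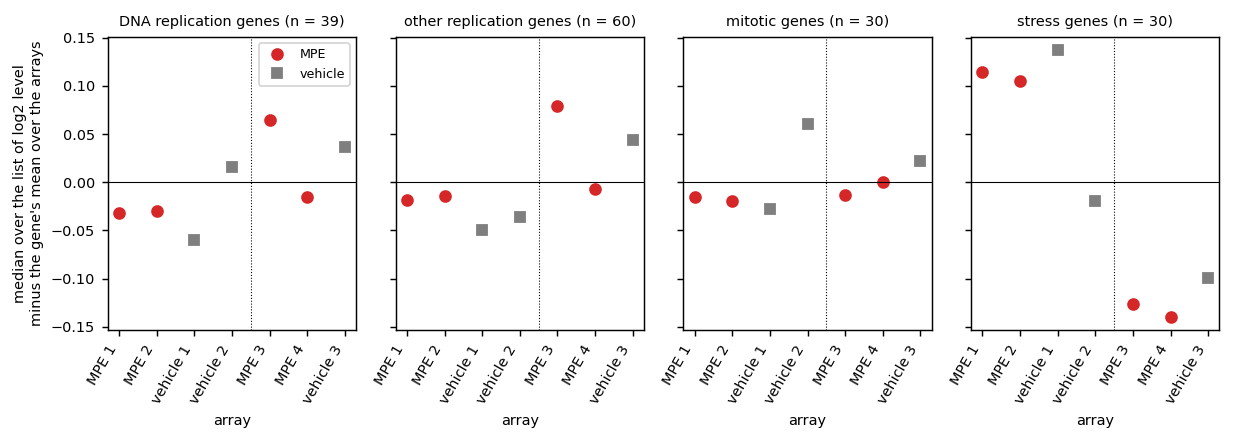
Median over each gene list of the log2 level minus the gene's mean over the arrays, with circles for MPE and squares for vehicle, and with replicates 1 and 2 left of the dotted line. The stress genes separate the arrays at the line, from 0.14 down to -0.14, while the replication and mitotic genes overlap across it.

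Individual members differed far more than the list median. Slbp had the lowest difference, -0.34, with levels of 1.29 and 1.24 in MPE replicates 1 and 2 and 0.83 and 1.46 in vehicle replicates 1 and 2, against 1.71 and 1.43 in MPE replicates 3 and 4 and 1.53 in vehicle replicate 3. Vehicle replicate 2 exceeded MPE replicate 4, so its arrays overlapped. Cdc45 was close behind at -0.33, with 0.20, 0.20, -0.04 and 0.18 in replicates 1 and 2, against 0.61, 0.46 and 0.40 on the other arrays. Its arrays did not overlap, and the difference was -0.33 within MPE and -0.33 within vehicle.

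Without overlap between the array sets were 6 members. Lower in replicates 1 and 2 were 4 of them, Cdc45, Hells (-0.15), E2f8 (-0.10) and Cdk2 (-0.15), where 11.7% of all genes were lower without overlap. Higher were 2, Pola1 and Pold1, where 16.1% of all genes were higher without overlap. Pola1, the catalytic subunit of DNA polymerase alpha, differed by 0.22, with 1.58, 1.94, 1.98 and 1.62 in replicates 1 and 2, against 1.56, 1.52 and 1.57 on the other arrays. Only MPE replicate 2 and vehicle replicate 1 were clearly high. Pold1 differed by 0.14, with 4.41, 4.41, 4.50 and 4.38, against 4.25, 4.29 and 4.29. In either direction these were 15.4% of the members, where 27.8% of all genes did not overlap. The count depended on processing. It was 15 members (38.5%), 14 of them lower, with quantile normalization and with normexp, where 25.6% and 24% of all genes did not overlap. With the mean of the gene's probes it was also 15 (38.5%), where 28.1% of all genes did not. With median scaling it was 6 (15.4%), where 31.1% did not. The count depended on single arrays too, and fewer arrays also overlap less by construction. It was 16 members (41%) without MPE replicate 4, where 40% of all genes did not overlap. Without vehicle replicate 2 it was 13 (33.3%), where 36.3% of all genes did not overlap, and without vehicle replicate 3 it was 10 (25.6%), where 35.7% did not.

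By role, the helicase activation genes had the most negative median. All 4 were lower in replicates 1 and 2, with a median of -0.13, and Gins2 stood at -0.15, Gins1 at -0.11 and Mcm10 at -0.06. All 10 licensing genes were lower with a median of -0.06, led by Orc6 (-0.17) and Orc1 (-0.14), while Mcm2 stood at -0.00. With median scaling 7 of the 10 licensing genes were higher, among them Mcm2, Mcm3, Mcm4, Mcm5, Mcm6 and Mcm7, and 3 of the 4 activation genes stayed lower. The 4 nucleotide supply genes were lower (median -0.05), led by Tk1 (-0.13), which median scaling turned to 3 higher and 1 lower (median 0.03). Of the Okazaki fragment genes, Fen1 stood at -0.10 and Lig1 at -0.03, and median scaling left 1 of them lower. Clamp, loader and polymerase genes split into 5 lower and 3 higher, with Pcna at -0.02, and into 2 lower and 6 higher under median scaling (median 0.05). The activators E2f1 and E2f2 were 0.05 and 0.06 higher, unlike E2f8 and Cdk2, and Ccne1 and Ccne2 stood at -0.07 and -0.06. Of the chromatin assembly, maintenance and repair genes, 3 were lower and 2 higher, Chaf1b at 0.06 and Ung at 0.06. Median scaling turned this group to 2 lower and 3 higher. Split by promoter, 12 of 15 members with an E2F-type match were lower (median -0.05), and 16 of 19 without one (median -0.06).

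**Figure D4:**
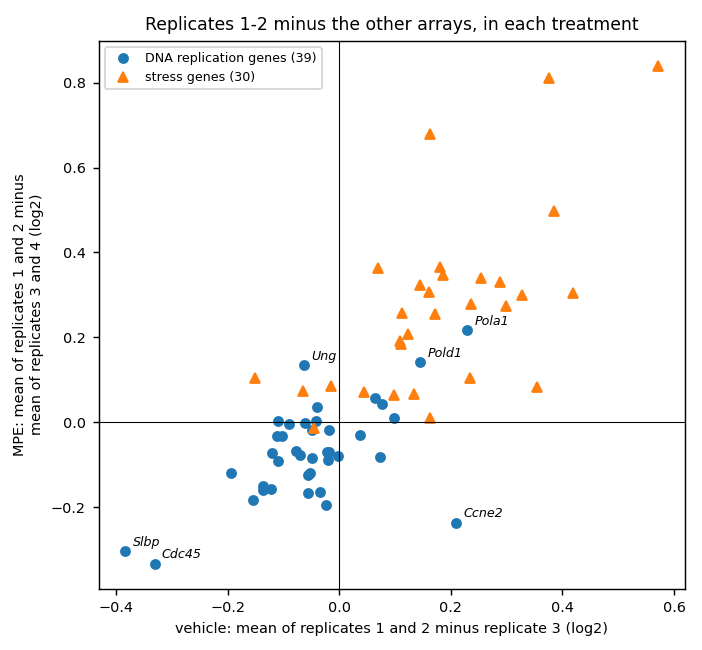
Mean of replicates 1 and 2 minus the other arrays within MPE (vertical, log2) and within vehicle (horizontal, log2) for each replication gene (circles) and stress gene (triangles). Most replication genes lie a little below 0 on both axes, Slbp and Cdc45 far below, and Pola1 and Pold1 above 0 with most stress genes.

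Probes of the same gene gave different sizes. Of 57 probes, 46 were lower in replicates 1 and 2 and 11 higher, and 12 were lower without overlap (11.6% of all 28874 probes) and 4 higher without overlap (15.6%). For 17 members with several probes, the dimmest probe had the same direction as the brightest in 15 and a larger difference in 12, against 61.2% and 63.2% of 5406 genes. For the MPE difference the direction was the same in 11 of the 17 (64.7%), against 53.8% of those genes. Mcm6 differed by -0.05 on its brightest probe and -0.40 on the other. That other probe read -0.46, -0.29, -0.57 and -0.36 in replicates 1 and 2, against 0.05, -0.07 and -0.01 on the other arrays. Rfc3 likewise had -0.09 and -0.37, and Gins1 had -0.11 on its probe for transcript NM_027014 and -0.44 on that for NM_001163476. Cdc45 went the other way, with -0.33 on its brightest probe and -0.01 on the other, and Mcm7 and Uhrf1 had probes of opposite sign (-0.02 and 0.27, and -0.05 and 0.21). Which transcript part each probe reads was not analysed here.

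**Figure D5:**
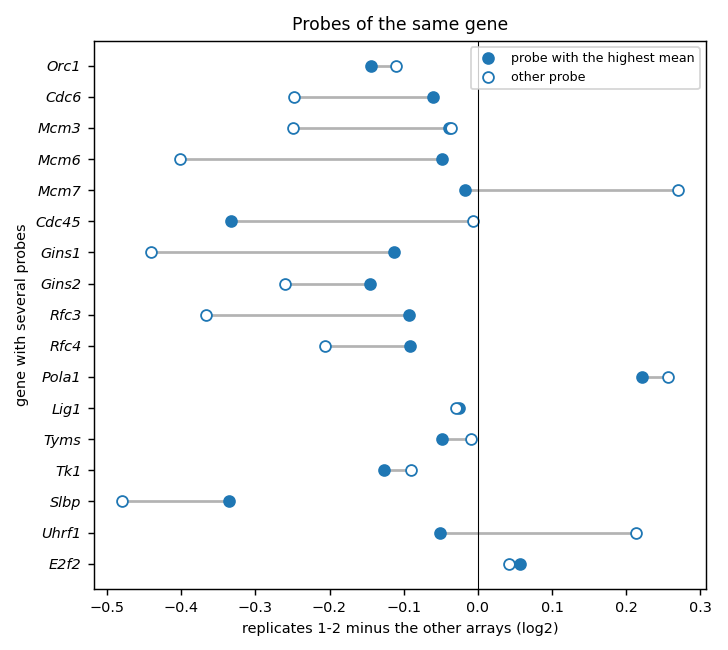
Difference of replicates 1 and 2 minus the other arrays (log2) for each probe of the 17 genes with several probes, filled for the probe with the highest mean and open for the others. The open points lie further left for Mcm6, Gins1 and Rfc3, and right of 0 for Mcm7 and Uhrf1.

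Neighbouring gene groups give the setting. Of 60 other replication genes, all measured, 42 were lower and 18 higher in replicates 1 and 2 (median -0.07), 14 and 2 of them without overlap, where 11.7% and 16.1% of all genes were. Their median deviation from the gene's mean was -0.05 to -0.015 in replicates 1 and 2, against -0.007 to 0.08 on the other arrays. These medians did not overlap between the array sets. Under median scaling 30 of the genes were lower and 30 higher. The p53-responsive ribonucleotide reductase subunit Rrm2b stood at -0.33 and the nuclease-helicase Dna2 at -0.25, while the RNase H2 subunit Rnaseh2a and the polymerase subunit Pold2 stood at 0.17 and 0.13. Between treatments 41 of these 60 were higher and 19 lower with MPE (median 0.02), turning to 12 and 48 under median scaling (median -0.05), and 0 passed limma's adjusted threshold. Their smallest unadjusted limma p was 0.0359, for the polymerase epsilon subunit Pole4 at 0.27 (SE 0.10, adjusted p = 1), with 0.33, 0.31, 0.51 and 0.69 on the MPE arrays, against 0.22, 0.23 and 0.12 on the vehicle arrays. These groups did not overlap.

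Mitotic genes and the pocket-protein network gave mixed directions. Of 30 mitotic genes 19 were lower and 11 higher in replicates 1 and 2, with a median of -0.03, which median scaling turned to 0.05. The mitotic kinase Cdk1 and the kinesin Kif2c stood at -0.28 and -0.23, and the kinesin Kif11 and the ubiquitin-conjugating enzyme Ube2c at 0.21 and 0.16. Mki67, the usual proliferation marker, stood at 0.10 there, and at -0.12 (SE 0.07, limma adjusted p = 1) with MPE. Of 23 measured E2F and pocket-protein regulators 9 were lower and 14 higher in replicates 1 and 2. The cell-cycle inhibitor gene Cdkn2a stood at 0.46 and the retinoblastoma gene Rb1 at 0.17, against -0.26 for the ubiquitin ligase subunit Skp2 and -0.08 for the E2F partner Tfdp1. Cyclin A gene Ccna2 stood at -0.07 (SE 0.06, limma adjusted p = 1) with MPE, with the smallest unadjusted p among these regulators. In the stress list it was the chaperone gene Hsp90b1 at -0.09 (SE 0.05, limma adjusted p = 1), and 0 members of any of these lists passed limma's adjusted threshold.

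Brightness and cell markers also moved between the array sets. With all genes divided by mean level into 5 equal bins, from dimmest to brightest, the median difference of replicates 1 and 2 from the other arrays was -0.07, -0.03, 0.01, 0.03 and 0.05. The brightest bin held 25 of the 39 members, with a median of -0.04. Of 8 measured beta-cell markers 7 were higher in replicates 1 and 2, and the sum of their linear levels was 3177 to 3756 there, against 2842 to 3085 on the other arrays. Of the 4 other islet hormones, Ppy stood at 1.43, Gcg at -0.02, Ghrl at -0.45 and Sst at -0.54, and their summed level was 48.5 to 51.4, against 48.3 to 55.0. The part of these in the result was not tested.

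Whether the MPE difference itself depended on the array set was tested as an interaction. Limma called 0 of 39 members at an adjusted p under 0.05, where 0.00453% of all genes were called, and 1 of 39 at an unadjusted p under 0.05, where 4.03% of all genes were. That member was Ccne2 (limma adjusted p = 0.999). It stood at -0.24 in replicates 1 and 2 against the other arrays within MPE, and at 0.21 within vehicle. The single vehicle array of the second set is assumed in this fit to vary like the others.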

How the data were processed

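Cy3-labelled cRNA from 100 ng of total RNA was run on Agilent mouse arrays in 1 colour (per the labels' protocols). Spot intensity comes from the deposited scanner files. Per the file headers, processed intensity was background-subtracted and detrended by Feature Extraction 11.5.1.1 (the submitters' processing notes give 10.5.1.1), and the median spot and background intensities are raw. The authors' value table holds deposited log2 values with equal medians (4.438), and each column correlated at 0.9996 or more with its own array; how it was normalized is not given in the sources used.

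Spots of control probes and 611 values of outlier spots were removed; 0 spots were saturated. Log2 processed signals were averaged per probe and reduced by the 75th percentile of the array. A probe had to be well above background on 3 arrays or more, and probes were named by RefSeq accession (assembly GRCm38.p6, 32994 of 56605 probes), and the brightest probe stood for a gene. Limma 3.58.1 (R 4.3.3, lmFit and eBayes) compared MPE with vehicle, with Benjamini-Hochberg adjustment over 22060 genes. The contrast of array sets is a coefficient beside treatment, without a test. The fits were tested on simulated data. The number of arrays limits the precision.

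Members and lists were chosen with earlier results of these data known. All members may be named. From each further list, the text names the non-overlapping genes with the largest difference between array sets (up to 2 per direction) and the gene with the smallest p for MPE. Unfolded-protein response genes of the stress list are named in addition. Alternatives covered scaling, normexp, the authors' table, filters, probe choice, variance model, blocks and each array left out. Normexp used the median spot intensity.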

Additional observations from a re-analysis of the deposited data

Results flagged for a closer look

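The check covered 57 genes, the members and those named by difference or p from the further lists. Of these, 4 had 1 MPE array that stood apart from the other 3. Their Dixon's ratio of the gap to the range was above the 95% critical value for 4 samples. Chance flags about 1 in 20 groups. Orc1 on MPE replicate 3 was at -0.58, with -0.89 to -0.88 on the other MPE arrays. Cdk2 on the same array was at -0.57, with -0.79 to -0.78 on the others. Tyms, also on MPE replicate 3, was at 5.12, with 4.95 to 4.98 on the others. Pola1 on MPE replicate 2 was at 1.94, with 1.52 to 1.58 on the others. Of these, 3 were high on MPE replicate 3, the array that held the highest value of 20 of the 39 replication genes.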

How the results depend on the processing

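No replication gene was called for MPE against vehicle under any alternative, and the smallest adjusted limma p over all of them was 0.209 (Cdt1, without a filter). Cdt1 was higher with MPE in all 20 alternatives, from 0.08 to 0.19. The median of the 39 genes for MPE ran from -0.09 with median scaling to 0.02 with normexp. The number of all genes called higher was 1, and was 0 with normexp, with the filter on all 7 arrays, with the replicate block and with a block for slide column, 3 when the variance was trended and robust, and 0 to 3 without 1 array. Genes called lower were 0, and were 2 with the dimmest probe and 0 to 1 without 1 array. Without any filter, which lets in genes at background, 9619 were called higher and 349 lower. For replicates 1 and 2 against the other arrays, 6 replication genes were without overlap, where 27.8% of all genes were. The count was 15 with quantile normalization (25.6% of all genes), 15 with normexp (24%), 13 with the authors' table (25.5%), 15 with the mean of the gene's probes (28.1%), 14 with its dimmest probe (27.3%) and 6 to 16 without 1 array (31.4% to 40%). In the main setting 4 members were lower and 2 higher. The counts were 14 and 1 with quantile normalization and with normexp, and 12 and 1 with the authors' table. With probe means they were 12 and 3, and with the dimmest probe 11 and 3. Of all genes, 11.7% to 12.7% were lower in these settings and 11.9% to 16.1% higher. With median scaling 1 member was lower and 5 higher, where 5.39% and 25.7% of all genes were. The cause of these changes was not tested. Median scaling, which moves every gene by the same amount, turned 18 members of that contrast and 10 of the MPE contrast. The interaction called 1 to 3 genes without 1 array, and without vehicle replicate 3 it could not be fitted. Deviations of same-numbered MPE and vehicle arrays correlated at 0.247, 0.0509 and 0.413. For MPE replicates 1 and 3 this was the highest value among the 3 vehicle arrays, while MPE replicate 2 correlated best with vehicle replicate 1 (0.306). These values do not settle whether the numbers mark pairs, and the main fit did not use them as pairs. With the replicate block the median of the members was -0.01 and 0 were called. The dimmest-probe setting was chosen after seeing the data.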
